A study of Mus musculus with 10 samples.

Results

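The genes described here are 10 immediate early genes of the mouse. They comprise the AP-1 subunits Fos, Fosb, Jun, Junb and Jund, the AP-1 partner Atf3, the zinc-finger factors Egr1, Egr2 and Egr3, and the small nuclear protein gene Ier2. They were chosen by symbol, as the entries of the count table whose Ensembl identifier gives these symbols in the GENCODE M21 annotation. All 10 were found among the 55385 mouse genes of the table. All 10 also belonged to the 11274 tested genes, whose mean over the libraries reached 5 CPM, the read count scaled to the size of the library.

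The samples were neutrophils isolated by their red Tomato fluorescence from squamous cell carcinomas grafted on CatchupIVM-red mice. In these hosts a knock-in at Ly6g, a surface protein gene of mature neutrophils, drives Cre and the Tomato reporter. Grafts were either the parental Sox2low line, called control here, or cells of that carcinoma with high Sox2 (Sox2Hi), a transcription factor of stem cells. The sample descriptions mark all libraries C57, those of control grafts GFP and those of Sox2Hi grafts Sox2, without further explanation. Tumours were left naive or the mice were treated with anti-PDL1 and a CD40 agonist, which gave 5 libraries of bulk RNA from control tumours (3 naive, 2 treated) and 5 from Sox2Hi tumours (3 naive, 2 treated). All groups share the reporter host, and the control graft is described as a parental line, so each graft type stands for 1 line. The age and sex of the hosts, the dose, the interval between treatment and isolation and the time taken to dissociate the tumours are not given in the sources used here. The labels number the libraries of a group as replicates but do not say that they came from separate animals, so the p-values measure the spread between these libraries.

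Immediate early genes are transcribed within minutes of a signal, before any new protein is needed, and their messenger RNAs are short-lived. Growth factor, cytokine, Toll-like receptor and stress signals reach them through MAP kinases, serum response factor with its ETS partners, and CREB. Fos proteins pair with Jun proteins, and Atf3 pairs with several of them, to form AP-1, which binds DNA in the enhancers of cytokine, protease and survival genes of myeloid cells. The same genes are known to rise while tissue is being digested into single cells. The design did not vary the isolation, so its part in the levels cannot be told apart from that of the tumour.

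The stretches just before the transcription start of 4 of the genes are printed because they hold the kinds of element through which these signals act. Each is the 250 bases before a RefSeq start (GRCm38.p6), read 5′ to 3′ on the gene's strand. Capitals mark matches to the searched motifs. In Fos (chr12:85473640-85473889, plus strand) they mark CRE core matches (TGACG) and a TATA box (TATAAA). In Jun (chr4:95052223-95052472, minus strand) they mark the TGACATCA element, and in Atf3 (chr1:191183334-191183583, minus strand) a CRE core on the opposite strand, which lies within the 7 bases that GENCODE counts to an exon. In Egr2 (chr10:67537619-67537868, plus strand) they mark CRE cores and a CArG box, the site of serum response factor. This is 1 of 5 Egr2 starts, shown because it holds both.
Fos: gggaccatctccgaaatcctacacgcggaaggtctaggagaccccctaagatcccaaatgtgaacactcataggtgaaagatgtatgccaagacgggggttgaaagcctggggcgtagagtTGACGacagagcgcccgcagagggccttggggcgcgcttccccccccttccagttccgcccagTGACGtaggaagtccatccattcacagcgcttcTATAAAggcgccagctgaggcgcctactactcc
Jun: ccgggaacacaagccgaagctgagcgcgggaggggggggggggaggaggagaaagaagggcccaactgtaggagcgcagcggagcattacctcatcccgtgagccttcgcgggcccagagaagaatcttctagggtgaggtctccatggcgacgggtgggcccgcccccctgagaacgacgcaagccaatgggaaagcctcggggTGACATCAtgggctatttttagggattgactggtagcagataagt
Atf3: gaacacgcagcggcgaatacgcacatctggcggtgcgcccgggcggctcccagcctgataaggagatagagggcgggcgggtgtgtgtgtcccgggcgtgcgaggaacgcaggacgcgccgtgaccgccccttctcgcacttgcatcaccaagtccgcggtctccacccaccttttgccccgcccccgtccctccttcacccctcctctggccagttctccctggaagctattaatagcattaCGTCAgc
Egr2: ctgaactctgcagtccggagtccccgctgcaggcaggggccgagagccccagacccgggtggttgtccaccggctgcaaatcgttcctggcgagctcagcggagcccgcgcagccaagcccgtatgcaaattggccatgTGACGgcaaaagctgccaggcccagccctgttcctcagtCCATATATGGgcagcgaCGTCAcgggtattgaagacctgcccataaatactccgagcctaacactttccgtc

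RefSeq promoter windows were matched for 7 of the 10 genes (11 windows) and not for Egr1, Egr3 and Ier2. A CRE core on either strand was found in 5 of these 7 genes, namely Fos, Fosb, Junb, Atf3 and Egr2, and in 19.8% of all 27025 genes with such windows (17.8% of 32851 windows). The CArG box was found in Egr2 (1.62% of all genes), the TGACATCA element on either strand in Jun (3.41%), the EGR site GCGGGGGCG on either strand in Fosb (2.93%) and the sense-strand TATAAA in Fos (8.94%). The full CRE octamer TGACGTCA, which contains the CRE core, and the AP-1 site TGACTCA were searched on both strands and matched in 0 of the 7 genes, against 1.77% and 5.16% of all genes. Egr2 was searched in 5 windows and each of the other 6 genes in 1. The RefSeq start of Jund lies 1210 bases before the gene's start in GENCODE, so its window does not adjoin the GENCODE gene, and the printed starts of Atf3 and Egr2 lie inside the GENCODE genes. These matches describe the letters of the windows and nothing about binding in these cells.

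Library totals ran from 13815734 to 22986193 counts. CPM values are scaled on the 11274 expressed genes (expressed-gene scaling). The share of counts expected from background, estimated from 1464 receptor genes silent in these cells, was 1.58 to 1.74% in control treated libraries and 3.63 to 8.37% in the others. Of 53207 genes with a count, 29648 passed edgeR's expression filter, and a scaling over these is called all-gene scaling. Shares of all genes under it refer to these 29648. This scaling follows the background share. It raised values in control treated relative to the other groups, so results of the 10 genes that change under it are given under both, and the counts of related lists under it are given after those lists. Among 20 neutrophil markers summed CPM was 15567 to 25178 in control naive, 55588 to 59102 in control treated, 14249 to 20997 in Sox2Hi naive and 29047 to 30745 in Sox2Hi treated, with no marker at 0. Ly6g itself, the gene that carries the knock-in in these hosts, was low, at 1.74 to 3.50 CPM in control naive, 11.4 to 17.8 in control treated, 1.87 to 3.19 in Sox2Hi naive and 5.80 to 10.3 in Sox2Hi treated. The part of the knock-in in this level was not tested. Summed keratinocyte markers reached 5012 CPM and summed macrophage and dendritic cell markers 20227 CPM, of which Cd74 alone gave 18336 CPM. The libraries thus held keratinocyte RNA beside that of neutrophils.

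Atf3, Fos and Ier2 were the most abundant of the 10 genes. Per kilobase of exon and averaged over the 10 libraries, Atf3, a stress-responsive repressor and activator, stood at 253 ± 39.3 CPM per kb (SD, n = 10). Fos, the founding AP-1 subunit, stood at 208 ± 56.3 CPM per kb and Ier2 at 180 ± 58.3 CPM per kb. These 3 genes held ranks 1 to 3 in every library. Fos was above Ier2 in 6 of 10 libraries, so the order of these neighbours was not stable, whereas Atf3 was above Fos in 9 of 10.

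The remaining 7 genes were lower. Egr1, an early growth response factor induced by mitogens, averaged 41.0 ± 9.64 CPM per kb. The Jun proteins followed: Junb at 29.5 ± 5.34 CPM per kb, Jund at 22.8 ± 3.75 and Jun at 21.1 ± 4.17. Jund was above Jun in 8 of 10 libraries, a difference smaller than either SD. Fosb averaged 10.7 ± 1.84 CPM per kb, Egr3 7.75 ± 2.32, and Egr2, which acts with Egr1 in myeloid differentiation, was the lowest in every library at 3.30 ± 0.923. By mean CPM among all tested genes, Atf3 lay at percentile 97.6, Fos at percentile 97.3 and Egr2 at percentile 33.9. Reads expected from background made up on average 10.5% of Egr2's counts, 4.74% of Egr3's and 3.15% of Fosb's, and less than that for the other 7 genes. Exons of Jun, Junb and Jund overlap a gene on the opposite strand over 232, 173 and 877 bases, with Junos, Prdx2 and Gm11175 as the partners. Gm11175 had 0 reads in every library, and because the strand setting of the counts is not stated, reads of Jun and Junb cannot be told apart from those of their partners there.

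The ratio of the highest to the lowest library ran from 1.59 for Atf3 to 2.90 for Egr3. Among all tested genes, this ratio put Atf3 at percentile 13.8 and Egr3 at percentile 66.4. Summed over the 10 genes, the level in control tumours was 1539 ± 177 CPM when naive and 1791 ± 583 CPM when treated (SD, n = 3 and 2). In Sox2Hi tumours it was 1856 ± 218 CPM when naive and 2005 ± 399 CPM when treated (n = 3 and 2). The treated replicates were far apart, at 2204 and 1379 CPM in control tumours and at 2286 and 1723 CPM in Sox2Hi tumours. In bulk RNA, fewer cells of a type and less RNA per cell cannot be told apart.

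**Figure D1:**
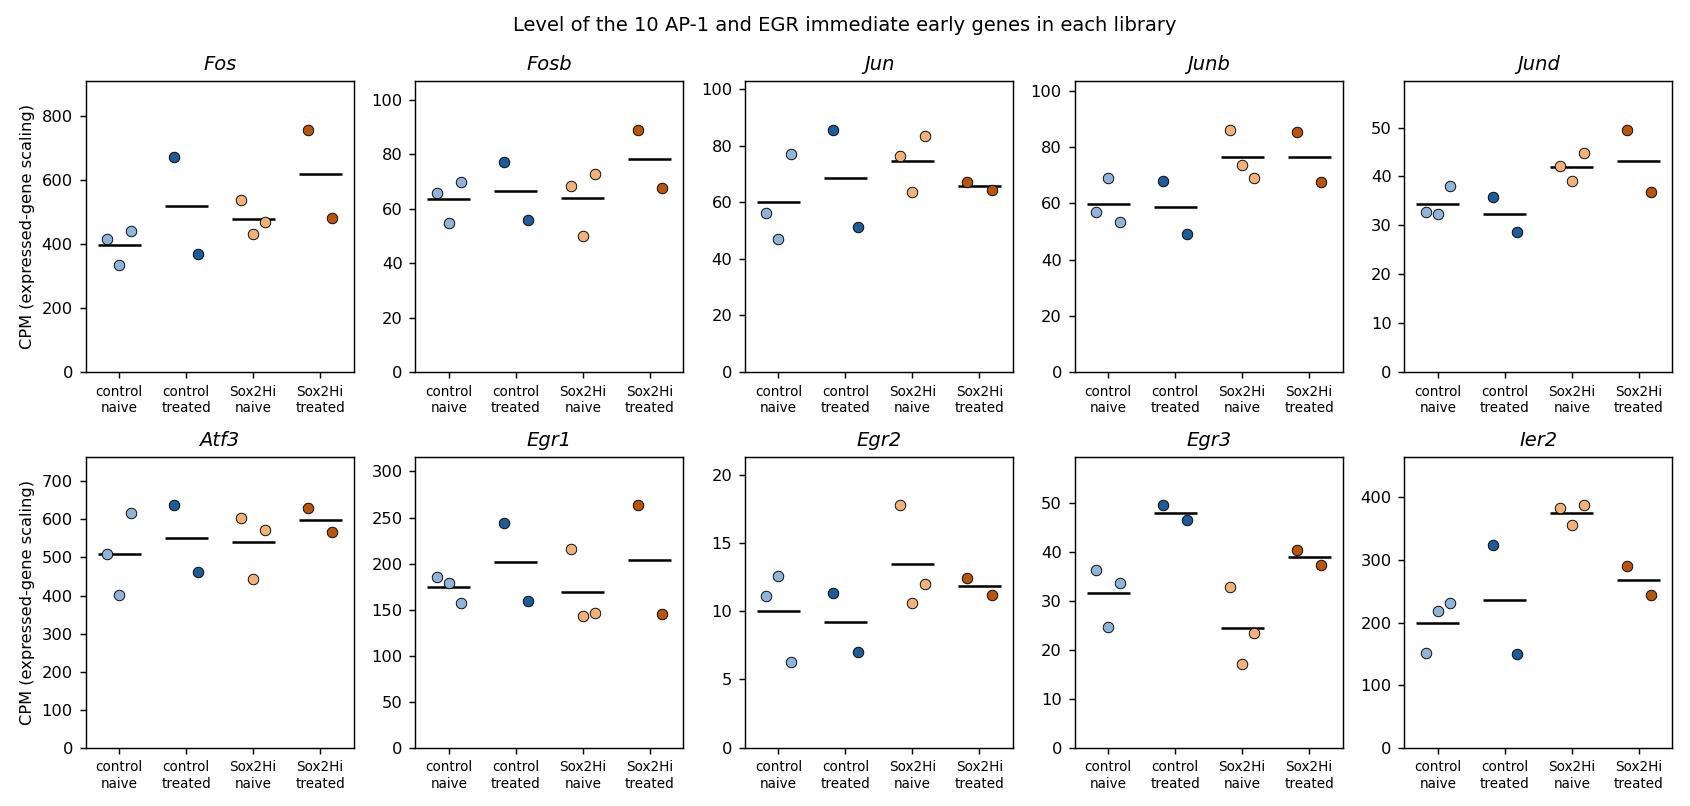
Level of each of the 10 genes in CPM (vertical axes from 0, expressed-gene scaling) in each library, by group. Points are libraries and horizontal lines are group means. The 3 Ier2 values of Sox2Hi naive lie above the 3 of control naive, the treated Egr3 values lie above the naive ones in both grafts, and most other groups overlap.

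The question put to the treatment comparison was whether anti-PDL1 and CD40 agonist changed these genes in control tumours. None of the 10 genes passed the threshold (edgeR quasi-likelihood test, adjusted p under 0.05), and 1 had an unadjusted p under 0.05, while 57.3% of all tested genes were called. Among the 1520 most abundant genes, with means of 100 CPM or more, 65.9% were called. DESeq2 called 1 of the 10 genes (58% of all tested genes) and limma-voom called 0 (59.8%). The median log2 fold change was 0.15 over the 10 genes and -0.18 over all tested genes, and RLE or DESeq2 scaling moved the latter to -0.03. The median was 0.19 over genes of 20 CPM or more, as 9 of the 10 are, and 0.54 over those of 100 CPM or more. All 95% confidence bounds for the 10 genes lay between -0.85 and 1.15.

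Egr3 (ENSMUSG00000033730, chr14:70077203-70082614 in GRCm38, plus strand), a growth response factor that also restrains lymphocyte activation, came nearest to the threshold. Its level was 36.3, 24.6 and 33.6 CPM in the control naive libraries and 49.5 and 46.5 CPM in the control treated ones. The groups did not overlap, which held in the higher direction for 29.6% of all tested genes. The log2 fold change was 0.61 (SE 0.25, 95% interval 0.06 to 1.15) with an adjusted p of 0.0567. It passed in 6 of 10 alternatives, with DESeq2 giving 0.76 (adjusted p = 0.00741) and the fit on the groups compared giving 0.61 (adjusted p = 0.0461). Over the 10 alternatives the adjusted p reached 0.195.

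Fos (ENSMUSG00000021250, chr12:85473890-85477273, plus strand) had treated replicates far apart. It measured 414, 334 and 441 CPM in control naive and 670 and 368 CPM in control treated. The higher treated library was above all naive ones and the other lay among them. The log2 fold change was 0.39 (SE 0.26, 95% interval -0.19 to 0.97, adjusted p = 0.226). Without control treated replicate 2 it was 0.90 and passed (adjusted p = 0.023), and without control treated replicate 1 it was 0.01.

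The other AP-1 genes gave smaller values. Fosb measured 65.8, 54.7 and 69.8 CPM in control naive and 77.0 and 55.9 CPM in control treated (log2 fold change 0.07, 95% interval -0.41 to 0.54). Jun, the main partner of Fos, measured 56.1, 47.1 and 77.1 against 85.8 and 51.3 CPM (0.19, -0.36 to 0.74). In both genes the higher treated library was above all naive ones and the lower one within their range. Junb, which often opposes Jun, measured 57.05, 69.2 and 53.4 against 68.1 and 49.3 CPM (-0.03, -0.46 to 0.40). Jund, the most constitutive Jun protein, measured 32.7, 32.3 and 38.1 against 35.8 and 28.7 CPM (-0.09, -0.48 to 0.30). Atf3 measured 508, 402 and 617 against 637 and 463 CPM (0.11, -0.37 to 0.59). In each of these genes the groups overlapped.

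Egr1 measured 186, 179 and 158 CPM in control naive and 244 and 159 CPM in control treated (log2 fold change 0.21, 95% interval -0.39 to 0.82). Egr2 measured 11.1, 12.5 and 6.31 against 11.3 and 7.03 CPM (-0.12, -0.85 to 0.61). Ier2 measured 151, 218 and 231 against 324 and 150 CPM (0.24, -0.38 to 0.87). For Ier2 the treated libraries were both the highest and the lowest of the 5. Without control treated replicate 2 its log2 fold change was 0.84 and passed (adjusted p = 0.0196), and without control treated replicate 1 it was -0.31.

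Under the all-gene scaling, values of all 10 genes were positive in this comparison and 4 were called, against 34% of the genes tested there. These were Fos (log2 fold change 0.91), Junb (0.52), Egr1 (0.76) and Egr3 (1.14). The signs of Junb, Jund and Egr2 thus turned with the scaling.

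In Sox2Hi tumours treatment again left all 10 genes short of the threshold, with 1 of them at an unadjusted p under 0.05 and 21.6% of all tested genes called. DESeq2 called 0 of the 10 (27% of all tested genes) and limma-voom called 1 (33.4%). Among genes of 100 CPM or more, 30.6% were called. The share of all tested genes called moved with single libraries. It was 1.77% without Sox2Hi treated replicate 2, 11.9% without treated replicate 1, and 17%, 12.1% and 5.86% without Sox2Hi naive replicates 1, 2 and 3. The median was 0.09 both for the 10 genes and for all tested genes, and -0.18 for the 10 genes under the all-gene scaling. Confidence bounds ran from -1.12 to 1.22.

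Egr3 measured 32.8, 17.1 and 23.4 CPM in Sox2Hi naive and 40.3 and 37.4 CPM in Sox2Hi treated. The treated libraries were again above all naive ones, as for 37% of tested genes. The log2 fold change was 0.67 (SE 0.25, 95% interval 0.12 to 1.22, adjusted p = 0.0747). It passed in 2 of 10 alternatives, limma-voom (0.80, adjusted p = 0.0343) and the block by title number (0.73, adjusted p = 0.0399), and without Sox2Hi naive replicate 1 (0.94, adjusted p = 0.0258). The all-gene scaling gave 0.40.

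Ier2 was the gene with the lowest fold change here. It measured 383, 356 and 388 CPM in Sox2Hi naive and 291 and 244 CPM in Sox2Hi treated, so the treated libraries were below all naive ones, as for 25.4% of tested genes. The log2 fold change was -0.49 (SE 0.29, 95% interval -1.12 to 0.15, adjusted p = 0.224). Fitted on the Sox2Hi libraries alone it passed with the same value (adjusted p = 0.0429).

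Fos measured 536, 429 and 467 CPM in Sox2Hi naive and 757 and 482 CPM in Sox2Hi treated (log2 fold change 0.38, 95% interval -0.21 to 0.96). Fosb measured 68.4, 50.1 and 72.8 against 89.0 and 67.4 CPM (0.29, -0.18 to 0.77). In both, 1 treated library exceeded every naive library and the other did not. Jun measured 76.4, 63.8 and 83.6 against 67.4 and 64.3 CPM (-0.18, -0.73 to 0.37). Junb measured 86.3, 73.8 and 69.1 against 85.5 and 67.7 CPM and Jund 42.1, 39.1 and 44.7 against 49.6 and 36.8 CPM, with log2 fold changes of 0.00 and 0.04. Both treated libraries lay within the naive range for Jun, 1 lay within and 1 below it for Junb, and 1 lay above and 1 below it for Jund.

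Atf3 measured 603, 444 and 573 CPM in Sox2Hi naive and 631 and 567 CPM in Sox2Hi treated (log2 fold change 0.15, 95% interval -0.33 to 0.63). Egr1 measured 216, 143 and 147 against 263 and 145 CPM (0.28, -0.33 to 0.88). Egr2 measured 17.8, 10.6 and 12.0 against 12.4 and 11.2 CPM (-0.19, -0.90 to 0.53). All 3 overlapped between groups. Under the all-gene scaling 0 of the 10 genes were called (3.61% of genes tested there), 1 had an unadjusted p under 0.05, and Junb, Jund and Atf3 turned negative.

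Between grafts in naive tumours, Ier2 was higher in neutrophils from Sox2Hi tumours. Ier2 (ENSMUSG00000053560, chr8:84661331-84662852 in GRCm38, minus strand, protein-coding) is a serum-induced gene whose product acts in the nucleus as a transcriptional coregulator. It measured 151, 218 and 231 CPM in control naive and 383, 356 and 388 CPM in Sox2Hi naive. Every Sox2Hi library was above every control library, as for 10.7% of tested genes. The log2 fold change was 0.91 (SE 0.26, 95% interval 0.34 to 1.47), a 1.88-fold difference, with an adjusted p of 0.0384.

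Ier2 was the 1 gene of the 10 that passed in this comparison, where 14% of all tested genes were called and 2.1% were called higher in Sox2Hi. Among genes of 100 CPM or more, 6.51% were called. The share of all tested genes fell to 0.0355% (4 genes) without Sox2Hi naive replicate 3, to 6.98% and 4.49% without Sox2Hi naive replicates 1 and 2, and to 6.18% and 3.49% without control naive replicates 1 and 2, and was 17.7% without control naive replicate 3. The naive libraries of the grafts were paired by the number in their labels, a pairing that rests on a check in these same data. Ier2 was higher in all 3 pairs, by 2.54-fold, 1.63-fold and 1.68-fold. With that number as a block among the naive libraries, the log2 fold change was 0.93 (adjusted p = 0.00485), and 23% of genes were called. Ier2 passed in 10 of 11 alternatives, the exception being subtraction of the silent-gene rate (0.87, adjusted p = 0.077). It passed without control naive replicate 3 (1.02, adjusted p = 0.0382), and missed the threshold without any other of the 6 naive libraries, with values of 0.74 to 1.05 and adjusted p up to 0.146.

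The other 9 genes did not pass between grafts in naive tumours. Jund was above the control libraries in every Sox2Hi library, as for 10.7% of tested genes, with a log2 fold change of 0.29 (95% interval -0.06 to 0.64, adjusted p = 0.284). For Junb the value was 0.35 (-0.03 to 0.74, adjusted p = 0.231), and for Jun 0.31 (-0.18 to 0.80). Fos gave 0.27 (-0.26 to 0.79), Atf3 0.09 (-0.35 to 0.52) and Fosb 0.01 (-0.42 to 0.43). Of the EGR genes, Egr2 gave 0.43 (-0.20 to 1.07), Egr1 -0.05 (-0.59 to 0.50) and Egr3 -0.37 (-0.87 to 0.13). Within the 3 pairs of naive libraries, Fos (1.29, 1.29 and 1.06-fold), Jun, Junb and Jund were also higher in Sox2Hi in every pair, Egr3 was lower in every pair (ratios of 0.90, 0.70 and 0.69), and Fosb, Atf3, Egr1 and Egr2 differed in direction between pairs. The median was 0.28 over the 10 genes and -0.05 over all tested genes. DESeq2 called 1 of the 10, Ier2, and 16.6% of all tested genes. With limma-voom 4 were called, adding Junb (0.41), Jund (0.32) and Egr3 (-0.67) to Ier2 (1.22), where 36.6% of all tested genes were called. Under the all-gene scaling 2 were called, Junb (0.73) and Ier2 (1.28), against 1.87% of genes tested there.

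In treated tumours none of the 10 genes passed between grafts, 0 had an unadjusted p under 0.05, and 20.9% of all tested genes were called (24.5% of those of 100 CPM or more, and 2.52 to 10.2% of all tested genes without any 1 of the 4 treated libraries). DESeq2 and limma-voom also called 0, against 27.9% and 15.8% of all tested genes. Jund was above the control libraries in both Sox2Hi libraries, as for 34.3% of tested genes, with a log2 fold change of 0.42 (95% interval -0.01 to 0.85, adjusted p = 0.146). Egr3 was below them in both, as for 26.3% of tested genes, with -0.30 (-0.91 to 0.30, adjusted p = 0.459). Ier2, the gene that differed between naive grafts, stood at 324 and 150 CPM against 291 and 244 CPM (0.18, -0.51 to 0.86). Values were positive for 8 of the 10 genes under the expressed-gene scaling and for 0 of 10 under the all-gene scaling, where 0 were called (13.7% of genes tested there) and 1 had an unadjusted p under 0.05. No direction is therefore given for the 10 genes as a group in treated tumours.

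The interaction term asked whether treatment acted differently in the grafts. It called 0 of the 10 genes, with 0 at an unadjusted p under 0.05 and 19.8% of all tested genes called, or 11.7% of those of 100 CPM or more and 12.2% of those of 20 CPM or more. DESeq2 and limma-voom called 0 as well, against 29.8% and 24.4% of all tested genes. Ier2 had the most negative value, -0.73 (SE 0.40, 95% interval -1.62 to 0.16, adjusted p = 0.242). Without control treated replicate 2 it was -1.39 and passed (adjusted p = 0.0181), and leaving out other libraries gave values up to -0.25. The intervals of the other 9 genes all included 0, and that of Egr3, for which both grafts had a positive treatment value, was -0.72 to 0.85. Under the all-gene scaling all 10 values were negative and 3 were called, Jun (-1.16), Junb (-0.79) and Ier2 (-1.53), against 27.5% of genes tested there.

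**Figure D2:**
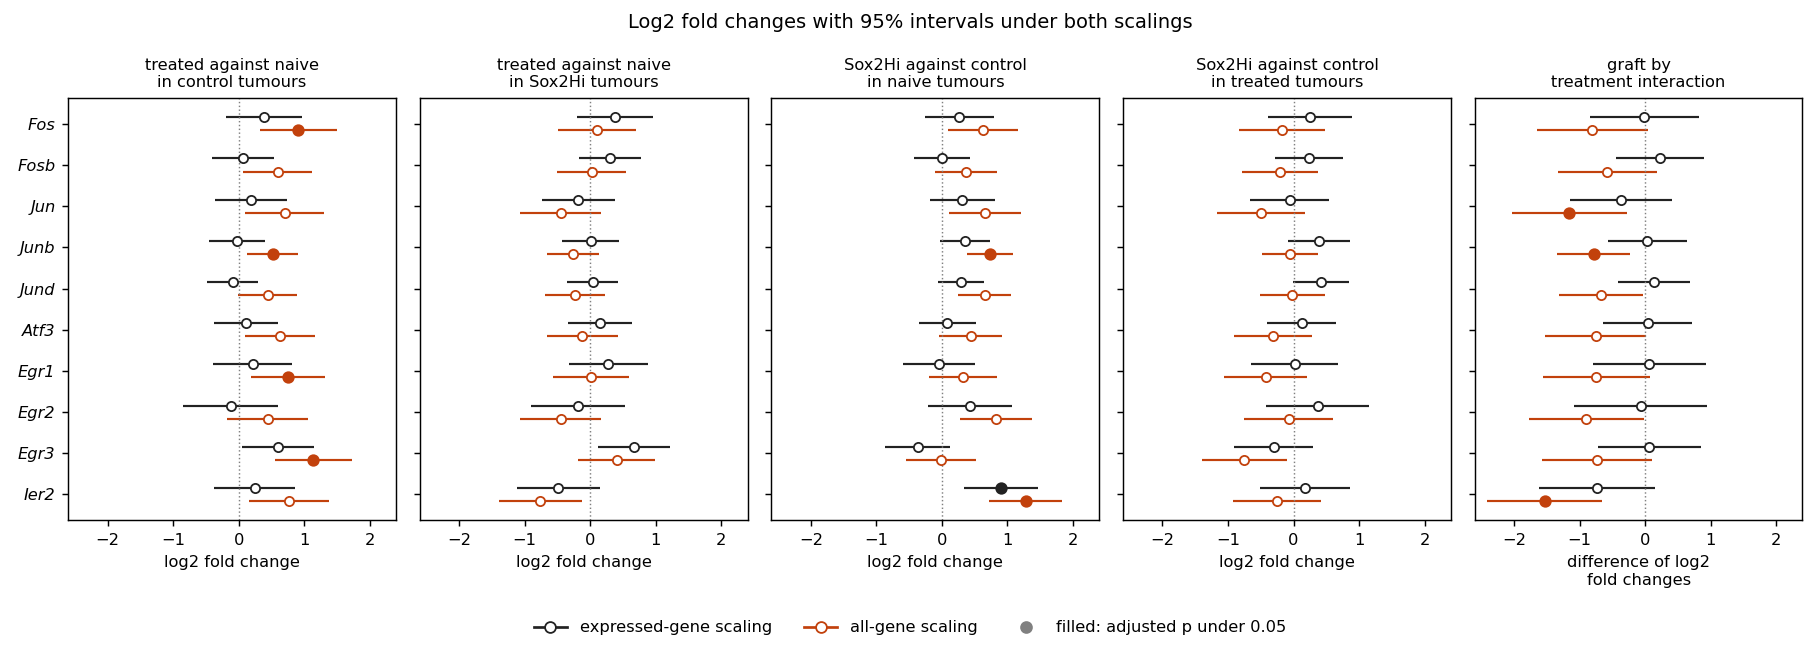
Log2 fold changes (points) with 95% intervals (lines) of the 10 genes in the 4 comparisons, and the difference of log2 fold changes for the interaction, under the expressed-gene scaling (black) and the all-gene scaling (orange). Filled points passed an adjusted p of 0.05. Under the expressed-gene scaling the 1 filled point is Ier2 between naive grafts, at 0.91, and the all-gene scaling shifts all 10 genes to the right or left together in each comparison.

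In 6 of the 10 libraries the 10 genes all lay on the same side of their group means. In control treated replicate 1, Sox2Hi naive replicate 1 and Sox2Hi treated replicate 1, all 10 were above their group mean, while in control treated replicate 2, Sox2Hi naive replicate 2 and Sox2Hi treated replicate 2, 0 of 10 were. In the remaining 4 libraries no such shared shift was seen, with 6, 4 and 7 of the 10 genes above the mean in control naive replicates 1, 2 and 3 and 5 in Sox2Hi naive replicate 3. In the treated groups, which have 2 libraries each, a gene above the mean in one replicate is below it in the other by construction. Across all tested genes the share above the group mean was 46.4 to 53.6% in every library. Between the control treated replicates the ratio ran from 1.07 for Egr3 to 2.17 for Ier2, with a median of 1.46, and Fos differed by 1.82-fold. Between the Sox2Hi treated replicates it ran from 1.05 for Jun to 1.82 for Egr1, with a median of 1.23. With 2 treated libraries a group, this spread enters the standard errors of every treatment comparison.

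Fos followed the other members most closely. Over the 10 libraries, Pearson's r of a gene's log2(CPM + 1) with the mean z-score of the other 9 was 0.92 for Fos, 0.80 for Fosb, 0.78 for Atf3 and 0.73 for Jund. It was 0.67 for Jun, 0.63 for Junb, 0.61 for Egr1 and 0.58 for Ier2. Egr2, the gene nearest to background, gave 0.45, and Egr3 gave 0.13. These values describe 10 libraries that share depth and group structure. Of the genes with promoter windows, Fos, Fosb, Junb, Atf3 and Egr2 carry a CRE core in the windows searched, and Jun and Jund do not.

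**Figure D3:**
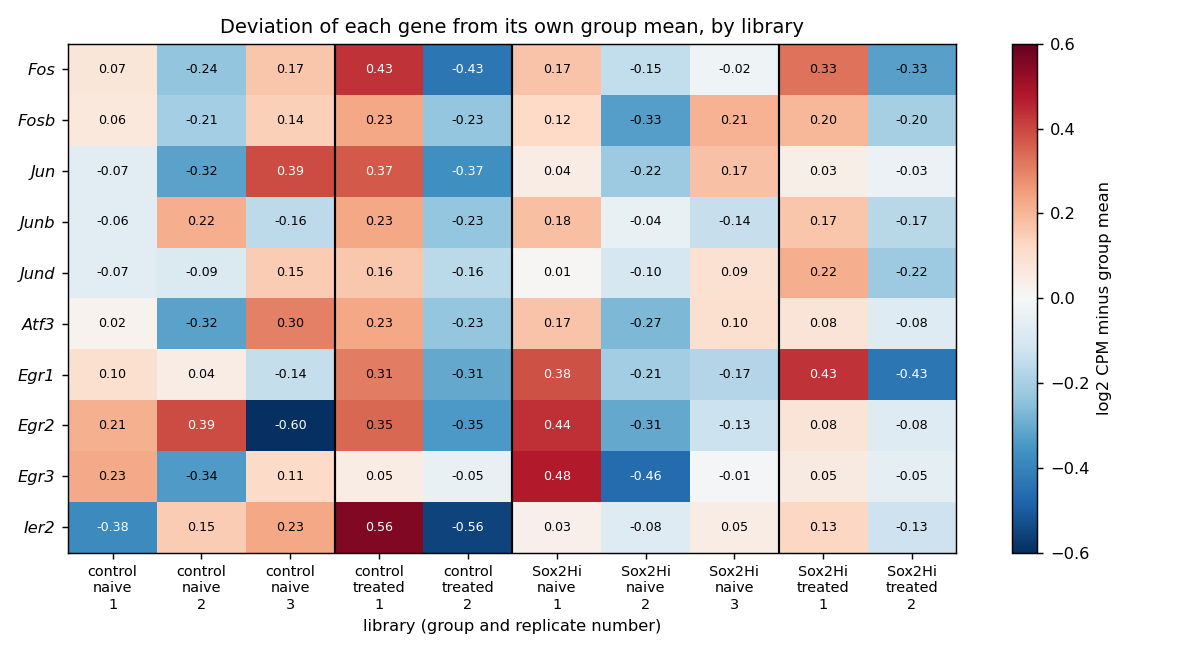
Deviation of log2 CPM from the gene's own group mean, for the 10 genes (rows) in the 10 libraries (columns, vertical lines between groups). Red is above and blue below the mean. Columns of control treated 1, Sox2Hi naive 1 and Sox2Hi treated 1 are above the mean throughout, and those of control treated 2, Sox2Hi naive 2 and Sox2Hi treated 2 are below it throughout, although values near 0 look almost white.

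Related lists are given by the ratio of replicate 1 to replicate 2 among treated libraries, as the median over their tested genes. Dusp1, the phosphatase that switches off MAP kinases and is itself an immediate early gene, stood at 4982 and 2918 CPM in the control treated replicates and at 4800 and 2869 CPM in the Sox2Hi treated replicates. Its list of MAP kinase phosphatases and sprouty genes had medians of 1.18 in control and 1.22 in Sox2Hi tumours, with 9 and 12 of 12 genes higher in replicate 1. Further immediate early genes had medians of 1.13 and 1.11, with 15 and 19 of 26 higher in replicate 1. Their sum ran the other way (0.85 and 0.86) through Btg1, an antiproliferative gene, and was 1.12 and 1.13 without it. AP-1 partners had medians of 1.01 and 0.97, upstream kinases and factors 1.03 and 0.98, heat shock genes 0.93 and 1.05 and activation genes 0.92 and 0.92. Of the markers of cell types, keratinocyte markers had 2.36 and 1.46, fibroblast and endothelial markers 1.15 and 2.86, neutrophil markers 1.27 and 0.95, and macrophage and dendritic cell markers 1.42 and 0.63. T and NK cell markers had 0.27 and 1.54, B and plasma cell markers 0.54 and 0.72, mast cell markers 0.24 and 2.50, and erythroid markers 6.25 and 0.50. Reads of the Y-linked gene Ddx3y numbered 4, 8, 6 and 7 in control naive replicate 1, control treated replicate 1, Sox2Hi naive replicate 1 and Sox2Hi treated replicate 2, and 1007 to 6618 in the other 6 libraries. Of the 3 libraries in which all 10 genes were above the group mean, 2 were thus low in Ddx3y and Sox2Hi treated replicate 1 was not. The part of other cells, of the sex of the host or of handling in the shared shift of the 10 genes was not tested.

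Other genes of the pathway passed the test under treatment. Of all tested genes, 24.1% rose and 33.1% fell with treatment in control tumours, and 15% rose and 6.57% fell in Sox2Hi tumours. Of 14 tested AP-1 partners (16 listed), 8 rose and 2 fell with treatment in control tumours, with a median log2 fold change of 0.50. Batf2 and Batf, AP-1 factors of interferon-responsive and activated myeloid cells, rose from 2.94 ± 0.653 to 26.1 ± 12.0 CPM (3.14, SE 0.30) and from 26.7 ± 6.39 to 63.0 ± 7.30 CPM (1.24, SE 0.22). Maf fell by 0.75. In Sox2Hi tumours 3 rose and 0 fell (median 0.23, or -0.04 under the all-gene scaling), namely Batf2 (2.45), Batf (1.14) and Maff (0.66), a small Maf protein.

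In control tumours 57.3% of all tested genes were called, and in Sox2Hi tumours 21.6%. Of 26 tested further immediate early genes (31 listed), 12 rose and 2 fell in control tumours (median 0.46). Klf6, a zinc-finger factor of myeloid inflammation, rose from 916 ± 65.2 to 2459 ± 300 CPM (1.42, SE 0.18), and Gadd45a, a growth arrest gene, from 59.1 ± 15.7 to 282 ± 12.6 CPM (2.25, SE 0.30). Ccn1, a secreted matrix protein of stromal and epithelial cells, fell by 1.00 and Sik1, a salt-inducible kinase, by 0.64. In Sox2Hi tumours 4 rose and 1 fell (median 0.43): Zfp36l1 (0.77) and Pim1 (0.73) rose most and Ccn1 fell by 1.24. Between naive grafts Ccn1 was higher in Sox2Hi (1.17, SE 0.33), as were Klf10 (0.45), which is induced by TGF-beta, and the kinase gene Pim3.

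Feedback regulators of the MAP kinase pathway split. Of 12 tested (13 listed), 2 rose and 5 fell with treatment in control tumours (median -0.49). The sprouty genes Spry4 and Spry2, which are induced by and dampen receptor tyrosine kinase signals, fell by 2.56 and by 1.90, while the phosphatases Dusp16 and Dusp1 rose by 1.18 and 0.97. In Sox2Hi tumours 0 rose and 3 fell (median -0.38), among them Spry2 (-1.21) and Spry4 (-1.12). Of 15 tested upstream kinases and SRF or CREB factors (21 listed), 3 rose and 2 fell in control tumours, Mapk14 (1.15) and Map2k1 (1.12) with the largest rise and Rps6ka5 (-0.57) and Elk3 (-0.51) falling. In Sox2Hi tumours Elk3, an SRF partner, was the 1 gene of this list that passed (-0.56).

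The lists that bear on activation and on tissue handling were counted in the same way. Of 27 genes of neutrophil activation, 23 rose and 0 fell in control tumours (median 1.08), with Il1a rising from 786 ± 161 to 3747 ± 193 CPM (2.25, SE 0.22) and Sod2 from 264 ± 48.9 to 1258 ± 92.8 CPM (2.25, SE 0.26). In Sox2Hi tumours 8 rose and 0 fell (median 0.52), led by Sod2 (1.48) and Traf1 (1.42). Between treated grafts 8 were lower and 0 higher in Sox2Hi (median -0.65), where 5.87% of all tested genes were lower and 15% higher and the median was 0.04 over all tested genes and -0.38 over those of 100 CPM or more, with Ccl4 (-1.58) and Ccl3 (-1.57) the lowest.

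Heat shock and metallothionein genes, which rise with heat, proteotoxic stress and tissue digestion, were 18 in number, and all were tested. In control tumours 2 rose and 8 fell with treatment (median -0.46), whereas 5 rose and 0 fell under the all-gene scaling (median 0.06). Hspe1, a mitochondrial co-chaperone, fell by 0.99 and Hspa1b by 0.96, while Hspa1a rose by 0.92 and Hsp90aa1 rose from 999 ± 41.5 to 1423 ± 426 CPM (0.51, SE 0.19). In Sox2Hi tumours 0 rose and 4 fell (median -0.21), with Hsph1 (-0.98) and Hspd1 (-0.97) the lowest, and 21.6% of all tested genes were called. Between naive grafts, where Ier2 differed, 1 of 18 rose and 0 fell. That gene was Hspa1a (11.5 ± 4.80 against 24.2 ± 6.32 CPM, log2 fold change 1.07), whose reads can be shared with its near-identical copy Hspa1b, at 12.0 ± 4.66 against 13.4 ± 2.37 CPM. The summed heat shock level was 6571 to 8850 CPM in control naive, 6348 to 7798 in control treated, 7650 to 8626 in Sox2Hi naive and 6779 to 7160 in Sox2Hi treated.

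**Figure D4:**
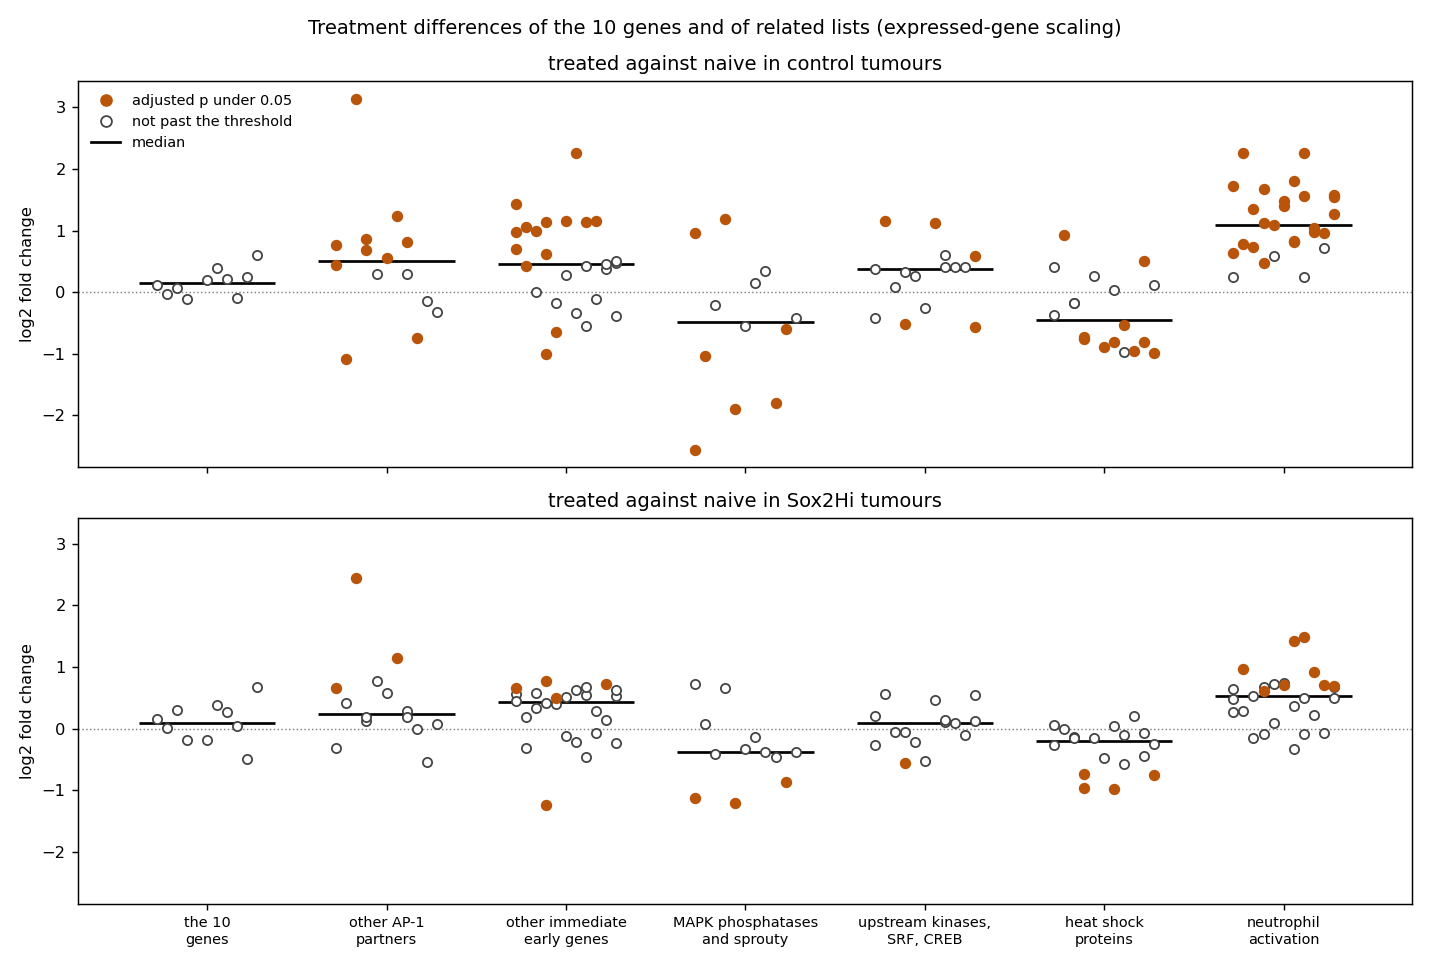
Log2 fold changes with treatment (expressed-gene scaling) in control tumours (upper panel) and Sox2Hi tumours (lower panel) for the 10 genes and 6 related lists. Each point is a gene, filled where the adjusted p was under 0.05, and lines are medians. The 10 genes are all open in both panels, whereas 23 of 27 activation genes are filled in the upper panel and 8 in the lower one.

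Scaling bears on these lists too. Under the all-gene scaling 18.7% of all genes rose and 15.3% fell with treatment in control tumours. There 10 of 16 AP-1 partners, 18 of 30 further immediate early genes, 11 of 21 upstream kinases and factors and 27 of 27 activation genes rose with 0 falling, and of 13 feedback regulators 4 rose and 3 fell. In Sox2Hi tumours that scaling had 1.79% of all genes rising and 1.82% falling. Of the AP-1 partners and of the activation genes 2 rose, 0 further immediate early genes (median 0.13) and 0 upstream kinases and factors were called, and 3 feedback regulators and 3 heat shock genes fell. Between naive grafts the AP-1 partners, further immediate early genes, feedback regulators, upstream kinases and factors, heat shock genes and activation genes had 1, 3, 1, 1, 1 and 0 genes called of 14, 26, 12, 15, 18 and 27 tested under the expressed-gene scaling (14% of all genes) and 0, 4, 1, 1, 1 and 1 of 16, 30, 13, 21, 18 and 27 under the all-gene scaling (1.87%). Lower in Sox2Hi under the expressed-gene scaling were Maf (-0.88) and Rps6ka5 (-0.63). Between treated grafts the lists in the same order had 1, 3, 2, 0, 1 and 8 genes called under the expressed-gene scaling (20.9% of all genes) and 7, 10, 3, 4, 3 and 18 under the all-gene scaling (13.7%). Beside the chemokines these included Atf1 (-0.58), Gadd45a (-1.17), Ier5 (-0.85), Sik1 (0.89), Spry4 (2.10) and Hspa1b (1.32) under the expressed-gene scaling. For the interaction they had 3, 3, 2, 1, 0 and 4 called under the expressed-gene scaling (19.8% of all genes) and 9, 14, 4, 14, 6 and 22 under the all-gene scaling (27.5%), where all of those called were negative.

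Markers of cell types were counted beside all tested genes, of which 24.1% rose and 33.1% fell with treatment in control tumours. In Sox2Hi tumours 15% rose and 6.57% fell. With treatment in control tumours 17 of 20 neutrophil markers rose, as did 3 of 13 tested macrophage and dendritic cell markers, near the share of all tested genes, and 6 of 11 T and NK cell markers. There 6 of 15 keratinocyte markers, 8 of 9 fibroblast and endothelial markers, 3 of 3 mast cell markers and 3 of 4 erythroid markers fell, and of 7 B and plasma cell markers 1 rose and 1 fell. In Sox2Hi tumours 12 of 20 neutrophil, 1 macrophage and dendritic cell and 3 T and NK cell markers rose, and 3 keratinocyte, 5 fibroblast and endothelial and 4 of 4 erythroid markers fell. Summed macrophage and dendritic cell markers were 6238 to 9519 CPM in control naive and 15521 to 16391 CPM in control treated, and 6456 to 9192 CPM in Sox2Hi naive and 8675 to 20227 CPM in Sox2Hi treated. Summed T and NK cell markers were 92.6 to 153 CPM in control naive and 216 to 703 CPM in control treated, and 64.2 to 272 CPM in Sox2Hi naive and 283 to 418 CPM in Sox2Hi treated. Macrophage and dendritic cell sums thus overlapped between naive and treated in Sox2Hi tumours and not in control tumours, and T and NK cell sums overlapped in neither. Cd74 alone made up 90.8% of the macrophage and dendritic cell sum in control treated libraries and 90.0% in Sox2Hi treated libraries. The ranges of that sum therefore mostly follow 1 gene. Between naive grafts, beside the Ier2 difference, 2 keratinocyte markers and 1 B and plasma cell marker were higher in Sox2Hi and 0 neutrophil, macrophage, fibroblast or T and NK cell markers differed. Of all tested genes, 2.1% were called higher there and 14% in either direction. Summed keratinocyte markers were 2353 to 4804 CPM in control naive and 3671 to 5012 CPM in Sox2Hi naive, and overlapped. Single markers in this sum differed in direction. Krt8 (520 to 722 against 992 to 1356 CPM) and Krt18 (673 to 868 against 1239 to 1868 CPM) did not overlap, as for 10.7% of tested genes in the higher direction. Epcam and Cdh1 also lay higher in every Sox2Hi library. Krt5 (101 to 371 against 86.3 to 139 CPM), Krt14 (205 to 757 against 265 to 336) and Sfn (528 to 1256 against 647 to 811) overlapped, with lower means in Sox2Hi. Among the 8 marker lists, Mzb1 was the 1 gene with 0 reads in a library. The part of these cells in the level of the 10 genes was not tested.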

How the data were processed

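RNA of 10 neutrophil libraries was measured with a low-input sequencing kit, per the labels' protocols. The authors deposited 1 table of raw counts per gene, whole numbers that may be rounded estimated counts, since kallisto 0.44.0 and mm10 are named per the submitters' processing notes. The annotation, strand setting and summing over transcripts are not given in the sources used here. The 96 entries that are not mouse genes (0.000992 to 0.00277% of counts) were left out.

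Groups came from the labels' graft and treatment. GENCODE M21 (GRCm38) gave symbols and positions for 55144 identifiers. Genes averaging 5 CPM or more were fitted in one 4-group model in edgeR 4.0.16 (R 4.3.3) with TMM factors from these genes, the quasi-likelihood F-test and Benjamini-Hochberg adjustment over all 11274 genes, called at 0.05. CPM are counts over the scaled library size, and limits cover the spread between libraries and counting error only. The common biological coefficient of variation was 21.2%. The members, lists and scaling were chosen with earlier results of these data known. All 10 members are named. Marker lists are given as counts. Of each other list, called genes averaging 10 CPM or more are named per contrast, 2 at most in each direction by size of change; genes with a graft difference in their treatment response are also named, and Maff and Pim3 were named after their values were seen. One gene that the naming rule picked for likeness to the 10 is not reported here. Alternatives were the all-gene scaling, RLE factors, DESeq2 1.42.0, limma-voom 3.58.1 with quality weights, no filter, subtraction of the silent-gene rate, the compared groups alone, replicate blocks, the Y-linked gene Ddx3y as a covariate and each library left out. The script was tested on simulated counts.

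Title numbers were taken to pair the naive libraries: deviations from group means correlated at 0.334, 0.333 and 0.422 in the 3 same-number pairs. Pairs of unlike numbers gave -0.349 to -0.012. Deviations within a group sum to 0, so these values are not independent, and the check uses the same data as the tests. The labels leave the meaning of the numbers unsaid, so the pairing rests on this check. Replicates of a group differed beyond sampling noise (smallest chi-square per degree of freedom 12.5).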

Additional observations from a re-analysis of the deposited data

Results flagged for a closer look

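No value of the 10 immediate early genes was picked out, and groups of 2 or 3 libraries are too small for a check of single libraries. In related lists the response to treatment differed between grafts by the interaction term of the edgeR fit for 13 of 112 tested genes (11.6%), against 19.8% of all tested genes and 12.2% of those of 20 CPM or more. Under the all-gene scaling 69 of 125 genes of these lists were called, all of them negative, against 27.5% of all genes, so the positive values below were not called there. A negative value means that the treatment difference was lower in Sox2Hi tumours. Among AP-1 partners these were Jdp2 (1.51), Atf1 (-0.76) and Atf4 (-0.74). Further immediate early genes were Klf10 (-0.73), Gadd45a (-1.62) and Sik1 (1.13). Feedback regulators were Spry4 (1.44) and Spred2 (1.10), and the kinase Rps6ka5 gave 1.12. Activation genes were Tnf (-1.76), Il1a (-1.29), Cxcl1 (-1.14) and Tnfaip3 (-0.89).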

How the results depend on the processing

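In the 510 values of the 10 genes under other settings, 475 kept their direction and side of the threshold (56 of these changed sign within 1 SE of 0), 17 newly passed, 1 no longer passed, and 17 reversed, all under the all-gene scaling. With treatment in control tumours the count of called genes (with the share of all genes called) was 4 under the all-gene scaling (34%) and 1 each with RLE factors (56%), DESeq2 (58%), the compared groups alone (48.9%) and the replicate block by title (56.4%) or description number (54.1%), and 0 to 2 without 1 library (43.2 to 59.6%), the 2 being Fos and Ier2 without control treated replicate 2. In Sox2Hi tumours it was 1 each with limma-voom (33.4%), the groups alone (31.5%) and the replicate block by title number (17.7%), and 0 to 1 without 1 library (1.77 to 17%). Between naive grafts it was 2 under the all-gene scaling (1.87%), 4 with limma-voom (36.6%), 0 with the silent-gene rate subtracted (7.2%) and 0 to 1 without 1 library (0.0355 to 17.7%). For the interaction it was 3 under the all-gene scaling (27.5%) and 0 to 1 without 1 library (13.7 to 22.9%). Reversed under the all-gene scaling were, with treatment in control tumours, Junb 0.52, Jund 0.44 and Egr2 0.44; in Sox2Hi tumours, Junb -0.26 and Jund -0.23; between naive grafts, Egr1 0.32; between treated grafts, Junb -0.055, Jund -0.022, Atf3 -0.32, Egr1 -0.42 and Egr2 -0.071; and for the interaction, Fosb -0.57, Junb -0.79, Jund -0.68, Atf3 -0.75, Egr1 -0.75 and Egr3 -0.73. That scaling follows background, and the cause of each change was not tested. Without 1 library, values ran with treatment in control tumours from -0.17 to 0.33 for Junb and from -0.31 to 0.84 for Ier2, between treated grafts from -0.48 to 0.28 for Egr1, from -0.068 to 0.65 for Egr2 and from -0.40 to 0.75 for Ier2, and for the interaction from -0.39 to 0.13 for Junb, from -0.38 to 0.12 for Atf3 and from -0.43 to 0.28 for Egr1. RLE and DESeq2 scaling moved the median of all tested genes between treated grafts from 0.04 to -0.12 and for the interaction from 0.02 to -0.23. The naive pairing left Ier2 called (0.93 with the replicate block among naive libraries) and changed no other call there. Treated libraries with the same title number correlated at -0.179 between grafts. With 2 libraries a group, the crossed numbers give 0.179 by construction, so this check cannot tell how they pair. In a fit with the numbers crossed, added after the data were seen, 0 of the 10 genes and 572 of all genes were called between treated grafts. With 2 treated libraries a group, the precision is limited by their spread rather than by depth.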

Other observations

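Genes without a symbol or with a Gm-number or Rik symbol were left out. Among the remaining 4939 other genes averaging 20 CPM or more, a library pattern most like the 10 was sought. Among the highest Pearson correlations with their mean z-score over the 10 libraries were those of Rsf1 (0.899), a chromatin remodelling factor, Arf3 (0.899), a small GTPase, Dip2b (0.861) and Csnk1e (0.855), casein kinase 1 epsilon. None of these 4 genes was called in any of the 5 contrasts by the edgeR test. Rsf1 ranged from 46.5 to 65.1 CPM. The mean z-score itself was highest in Sox2Hi treated replicate 1 (1.08) and lowest in control treated replicate 2 (-0.99). These are descriptions of 10 libraries, picked from the highest of many.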
